A study of Homo sapiens with 12 samples.

Results

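The genes described here are 38 cytokines, chemokines, their receptors and NF-kappaB pathway genes, out of 28747 gene identifiers counted in DU145 cells. DU145 cells derive from a human prostate carcinoma, are kept as an established line and lack the androgen receptor. The members were chosen by name, and all 38 were found in the table by their Ensembl identifier. They comprised 8 CXC chemokines, 4 CC chemokines, 3 cytokines of the interleukin-1 family, 3 cytokines that signal through gp130, 2 other interleukins, 3 colony-stimulating factors, 2 ligands of the TNF superfamily, 5 NF-kappaB subunits and feedback inhibitors, 3 other NF-kappaB targets, 3 cytokine receptors and 2 chemokine receptors.

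The study compared cells that carried a silencing hairpin, named shSigma in the labels, with control cells, in both bulk culture and culture enriched for stem-like cells. There were 4 groups of 3 libraries each, which the labels call independent replicates and the study's methods describe as independent biological samples. Adherent shCtrl and adherent shSigma cells carried the control or the silencing hairpin and grew attached to plastic in serum-containing medium. Tumor sphere shCtrl and tumor sphere shSigma cells were the same lines seeded at low density on non-adherent plates in serum-free medium with EGF, FGF2 and insulin. All 4 groups carried an integrated lentiviral shRNA vector and had been selected with puromycin. Which of a pair of silencing hairpins was sequenced is not given in the sources used here, so an effect of the hairpin apart from loss of its target cannot be told apart from that loss. A difference between tumor spheres and adherent cells likewise combines attachment, serum, added growth factors and the cells that survive, and these cannot be told apart.

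NF-kappaB is a family of dimeric transcription factors that are held in the cytoplasm by inhibitor proteins such as IκBα, the product of NFKBIA. Signals from cytokine receptors lead to degradation of the inhibitor, and the freed dimers switch on genes for chemokines, cytokines, survival proteins and their own inhibitors, which closes a negative feedback loop. Epithelial tumor cells secrete many of these ligands, which attract neutrophils and macrophages or act back on the tumor cell, and interleukin-6 family ligands signal through the shared receptor chain gp130 and the JAK-STAT pathway.

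Levels are given as CPM, counts scaled to library size and composition. Total counts lay between 16472722 and 26957777 per library. Adherent libraries differed more than tumor sphere libraries in the balance of GC-rich and GC-poor genes. The shift of the genes richest in GC (top quartile) against the poorest, relative to the group mean, ran from -0.402 (shSigma replicate 3) to 0.363 (shCtrl replicate 3) on the log2 scale, against -0.163 to 0.0907 in tumor spheres. Summed leukocyte markers stood at 2.03 to 3.68 CPM in every group, with 1 of 8 markers over 1 CPM, and summed epithelial markers at 2284 to 2348 CPM in tumor sphere shCtrl and 878 to 1452 CPM in the other libraries. After knockdown in tumor spheres 0 of the 5 epithelial markers were called higher and 4 lower, against 30.2% and 30.9% of all genes tested. After knockdown in adherent cells 3 were higher and 2 lower (22.3% and 27.7% of genes). In the interaction 0 were higher and 5 lower (12.7% and 15.6%). Between cultures all 5 were higher in tumor spheres of shCtrl cells (27.4% of genes). In shSigma cells 2 were higher there and 1 lower (21.9% and 25.2%). Summed fibroblast markers were also highest in tumor sphere shCtrl libraries, at 20.6 to 26.6 CPM, and lay between 3.57 and 14.8 CPM elsewhere, with at most 2 of 5 markers over 1 CPM. The part of either marker list in the results was not tested. In bulk samples of this kind, fewer expressing cells and less RNA per cell cannot be told apart.

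Of the 38 members, 28 had enough counts for a test, and the same number was tested in each comparison. Calls were made with the quasi-likelihood test of edgeR, adjusted across every gene tested (Benjamini-Hochberg), at a threshold of 0.05. The other 10 members were CXCL10, CXCL11, CCL2, CCL5, IL1A, IL1B, CSF2, CSF3, TNF and ACKR3, and none of them exceeded 10 counts in any library. CSF2, which encodes the granulocyte-macrophage colony-stimulating factor, reached 8, 7 and 10 counts in tumor sphere shSigma libraries and at most 4 in any other library. CXCL10, an interferon-induced chemokine, had 4, 4 and 8 counts there and at most 2 elsewhere. ACKR3, a scavenger receptor for the ligand of CXCR4, had 3, 6 and 6 counts in adherent shSigma libraries and at most 1 elsewhere. CCL2 went the other way in adherent cells, with a mean of 0.16 CPM in shCtrl and 0.016 CPM in shSigma libraries. It had at most 5 counts in any library. TNF and CCL5 were listed at 0 in all 12 libraries. These zeros could not be read as absence of transcripts, since 14 of the 20 coding genes nearest to TNF and 11 of the 20 nearest to CCL5 were also listed at 0. Of the coding genes of the MHC region, in which TNF lies, 79.2% were at 0 against 12.8% of all coding genes, and TUBB and RPS18, genes that every cell uses, had 0 and 1 counts in all (both were picked after their values were seen).

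The promoters of the members are shown for the chemokine cluster and for 5 genes of other roles, to give the context of a short element that several of them hold. The members were picked partly as NF-kappaB targets, so their share of matches is not independent of that choice, and no part of the element in the results was tested. RefSeq promoter windows of GRCh38.p14, from 250 bases before to 50 bases after each annotated start, were at hand for 29 of the 38 members, 6 of them with several starts. The NF-kappaB consensus was searched on both strands, and 14 of the 29 members held a match in at least 1 window, or 48.28%, against 7.09% of 27305 genes. The AP-1 motif TGANTCA was found in 17.24% of members and 9.37% of genes, and the ISRE motif of interferon-response genes in 10.34% and 4.38%. The stretches below lie before the start on the strand of the gene, and capitals mark the NF-kappaB consensus, with overlapping matches on both strands capitalised as 1 run. CXCL1, CXCL2, CXCL3 and CXCL5 lie in a cluster on chromosome 4 and share the letters of the element.
CXCL1 (chr4:73869293-73869392, + strand): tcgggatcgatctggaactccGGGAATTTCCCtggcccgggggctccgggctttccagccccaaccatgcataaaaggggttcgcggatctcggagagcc
CXCL2 (chr4:74099196-74099295, - strand): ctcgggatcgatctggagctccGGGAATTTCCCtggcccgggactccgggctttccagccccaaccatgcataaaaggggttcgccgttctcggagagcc
CXCL3 (chr4:74038690-74038789, - strand): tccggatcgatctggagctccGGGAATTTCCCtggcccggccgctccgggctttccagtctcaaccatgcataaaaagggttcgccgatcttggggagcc
CXCL5 (chr4:73998679-73998778, - strand): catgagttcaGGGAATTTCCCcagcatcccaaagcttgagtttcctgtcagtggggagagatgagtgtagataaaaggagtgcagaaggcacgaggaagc
CXCL8 (chr4:73740469-73740568, + strand): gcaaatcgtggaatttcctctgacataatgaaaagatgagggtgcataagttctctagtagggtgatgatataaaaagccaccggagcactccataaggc

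The window of CXCL8 held no match to the strict consensus, which says only that those letters are absent from it. It held the AP-1 motif 137 to 131 bases before the start. The next stretches are shown for genes of other roles, namely the cytokines IL6 and IL32, the inhibitors NFKBIA and TNFAIP3 and the survival gene BIRC3.
IL6 (chr7:22727100-22727199, + strand): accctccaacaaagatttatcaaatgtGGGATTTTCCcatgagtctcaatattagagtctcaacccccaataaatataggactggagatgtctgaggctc
IL32 (chr16:3065294-3065393, + strand): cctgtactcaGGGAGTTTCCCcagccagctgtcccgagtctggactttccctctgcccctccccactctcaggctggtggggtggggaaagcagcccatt
NFKBIA (chr14:35404750-35404849, - strand): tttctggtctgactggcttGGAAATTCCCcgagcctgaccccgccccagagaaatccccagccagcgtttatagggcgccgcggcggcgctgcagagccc
TNFAIP3 (chr6:137867159-137867258, + strand): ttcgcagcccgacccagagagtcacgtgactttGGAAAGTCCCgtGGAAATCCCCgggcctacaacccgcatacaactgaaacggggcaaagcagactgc
BIRC3 (chr11:102317275-102317374, + strand): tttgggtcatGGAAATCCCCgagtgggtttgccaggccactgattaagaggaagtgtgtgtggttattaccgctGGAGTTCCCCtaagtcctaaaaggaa

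The first question was which of these genes changed with the shSigma hairpin. In adherent cells 7 members rose and 14 fell, where 22.3% of the 13764 genes tested rose and 27.7% fell, so that the share of members that fell, 14 of 28, exceeded the share among all genes while the share that rose was close to it. In adherent cells 50.0% of genes were called in either direction. In tumor spheres 17 members rose and 8 fell, against 30.2% and 30.9% of 13774 genes (61.1% in either direction), and the share that rose exceeded the background. The median log2 fold change of the tested members was -0.18 in adherent cells, where the median of all genes was -0.01, and 0.58 in tumor spheres, where it was 0.00. Called changes of more than 1 on the log2 scale were found in adherent cells for 5 members that rose and 5 that fell, against 7.59% and 6.13% of genes (13.7% in either direction). In tumor spheres they were found for 11 that rose and 2 that fell, against 5.94% and 7.17% (13.1% in either direction). The 3 shSigma libraries did not overlap the 3 shCtrl libraries for 21 members in adherent cells and 25 in tumor spheres, against 57.9% and 66.8% of all genes. The members were picked by name with results of these data known, and the counts describe them and support nothing beyond these libraries.

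Both cultures called the same direction for 12 members. CXCL1, CXCL8, IL6, IL24, CSF1 and TNFAIP3 rose in both, and CCL28, LIF, ICAM1, PTGS2, IL1RAP and IL6ST fell in both. Another 6 members, CXCL2, CXCL5, IL18, NFKB1, NFKBIA and BIRC3, fell in adherent cells and rose in tumor spheres, and 0 members did the reverse. The shares of all genes in these classes were not computed, so the counts describe the members only. CXCL3, IL32, NFKB2, RELB and IL6R passed the test as higher in tumor spheres and did not pass it in adherent cells. The difference between the cultures was itself tested, in a fit of the 12 libraries with an interaction term. In it 16 members had a higher knockdown log2 fold change in tumor spheres and 6 a lower one, against 12.7% and 15.6% of 14175 genes (28.4% in either direction). Differences over 1 on the log2 scale were called for 11 higher and 4 lower members, against 2.50% and 6.04% of genes (8.54% in either direction). Of the 14 members with an NF-kappaB match in a promoter window 12 were tested, and 11 of them rose and 0 fell in tumor spheres, while 3 rose and 6 fell in adherent cells. Of the 11 tested members with a window and no match, 3 rose and 7 fell in tumor spheres. In adherent cells 3 of them rose and 5 fell. Among all genes tested, 30.2% rose and 30.9% fell in tumor spheres, and 22.3% rose and 27.7% fell in adherent cells. Calls among all genes with a match were not counted, and the part of the element was not tested.

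**Figure D1:**
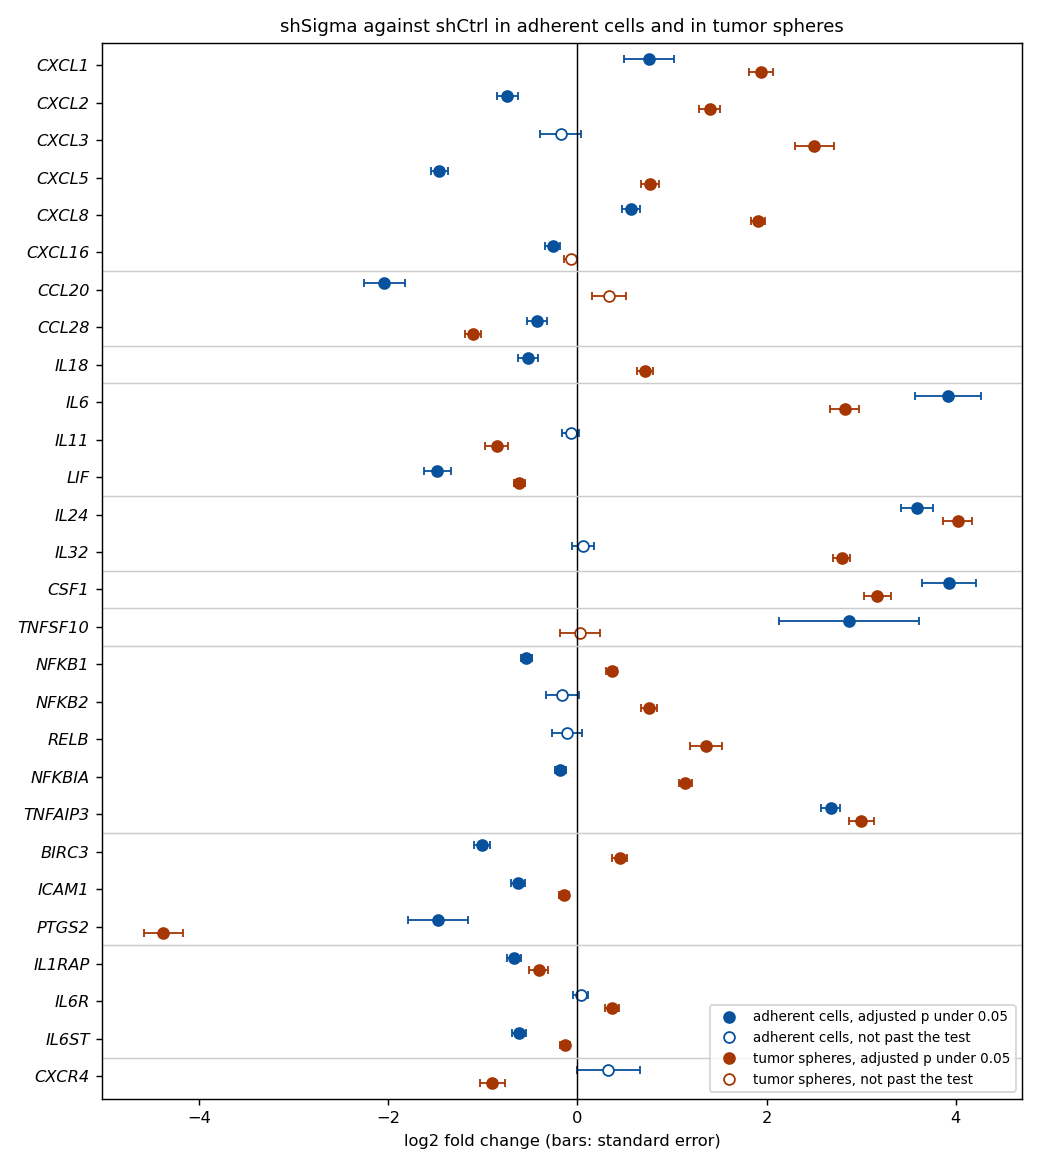
Log2 fold change of shSigma against shCtrl cells (x axis, with standard error) for the 28 tested members (y axis, grouped by role), in adherent cells (blue) and tumor spheres (brown), with filled points for an adjusted p under 0.05. Tumor spheres show 17 filled points right of 0 and 8 left of it, adherent cells 7 and 14, and 6 members have filled points on opposite sides.

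The CXC chemokines that attract neutrophils through CXCR1 and CXCR2 were highest in tumor sphere shSigma cells in all but CXCL5. CXCL8 (ENSG00000169429, chr4:73740519-73743716), the interleukin-8 gene, had 19.0, 18.4 and 16.9 CPM in adherent shCtrl, 25.5, 28.3 and 30.6 CPM in adherent shSigma, 23.6, 27.7 and 24.4 CPM in tumor sphere shCtrl and 94.7, 89.9 and 99.8 CPM in tumor sphere shSigma libraries. The last group stood apart from all others, and shSigma exceeded shCtrl in each culture without overlap. After knockdown CXCL8 rose by 0.57 on the log2 scale in adherent cells (SE 0.10, edgeR adjusted p = 0.00234) and by 1.91 in tumor spheres (SE 0.07, edgeR adjusted p = 1.83e-09), a 3.75-fold difference. The interaction was 1.28 (SE 0.13, edgeR adjusted p = 6.21e-06).

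CXCL1 (ENSG00000163739, chr4:73869393-73871308) was also highest in tumor sphere shSigma cells, at a lower level. Its values were 0.691, 0.803 and 0.789 CPM in adherent shCtrl and 1.67, 0.921 and 1.45 CPM in adherent shSigma libraries. In tumor spheres they were 2.93, 2.81 and 2.42 CPM in shCtrl and 10.8, 10.3 and 10.3 CPM in shSigma libraries. The tumor sphere shSigma libraries lay above all other libraries by a wide margin, while the adherent groups were close to each other. The log2 fold change after knockdown was 1.94 in tumor spheres (SE 0.13, edgeR adjusted p = 1.29e-07) and 0.76 in adherent cells (SE 0.27, edgeR adjusted p = 0.0464). The adherent call was lost with DESeq2 (adjusted p = 0.245) and when shSigma replicate 1 (0.151) or 3 (0.0837) or any shCtrl replicate (0.0859 to 0.0952) was left out.

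CXCL2 (ENSG00000081041, chr4:74097040-74099196) fell in adherent cells and rose in tumor spheres. It had 22.3, 19.0 and 19.1 CPM in adherent shCtrl libraries and 11.95, 13.0 and 12.9 CPM in adherent shSigma libraries. It had 21.2, 24.9 and 18.1 CPM in tumor sphere shCtrl libraries and 53.3, 62.6 and 53.9 CPM in tumor sphere shSigma libraries. The shCtrl groups of the 2 cultures overlapped each other, and the shSigma groups lay on opposite sides of them. The log2 fold changes after knockdown were -0.74 (SE 0.11, edgeR adjusted p = 0.00111) and 1.40 (SE 0.11, edgeR adjusted p = 1.22e-06), and they differed by 2.08 (SE 0.16, edgeR adjusted p = 8.06e-07).

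CXCL3 (ENSG00000163734, chr4:74036589-74038807) did not pass the test in adherent cells, where shCtrl libraries had 1.77, 1.44 and 1.54 CPM and shSigma libraries 1.71, 1.13 and 1.54 CPM. In tumor spheres it had 0.761, 0.938 and 0.907 CPM in shCtrl and 5.90, 4.56 and 4.50 CPM in shSigma libraries, a 5.68-fold rise (log2 fold change 2.50, SE 0.20, edgeR adjusted p = 8.26e-07). The adherent groups overlapped and the tumor sphere groups did not. CXCL5 (ENSG00000163735, chr4:73995642-73998677) was highest in adherent shCtrl cells, with 26.4, 25.2 and 24.6 CPM, against 9.23, 9.73 and 10.03 CPM in adherent shSigma cells. In tumor spheres it rose from 8.72, 8.22 and 8.26 CPM to 13.7, 14.8 and 14.5 CPM, so that all 4 comparisons of its groups separated. The log2 fold changes of CXCL5 after knockdown were -1.46 (SE 0.09) and 0.77 (SE 0.10), and the interaction was 2.16 (SE 0.12, edgeR adjusted p = 3.07e-08). CXCL1, CXCL2 and CXCL3 are close paralogs, and 0.273%, 2.50% and 2.30% of their 75-nt windows occur in other transcripts, where reads could not be assigned to 1 gene.

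**Figure D2:**
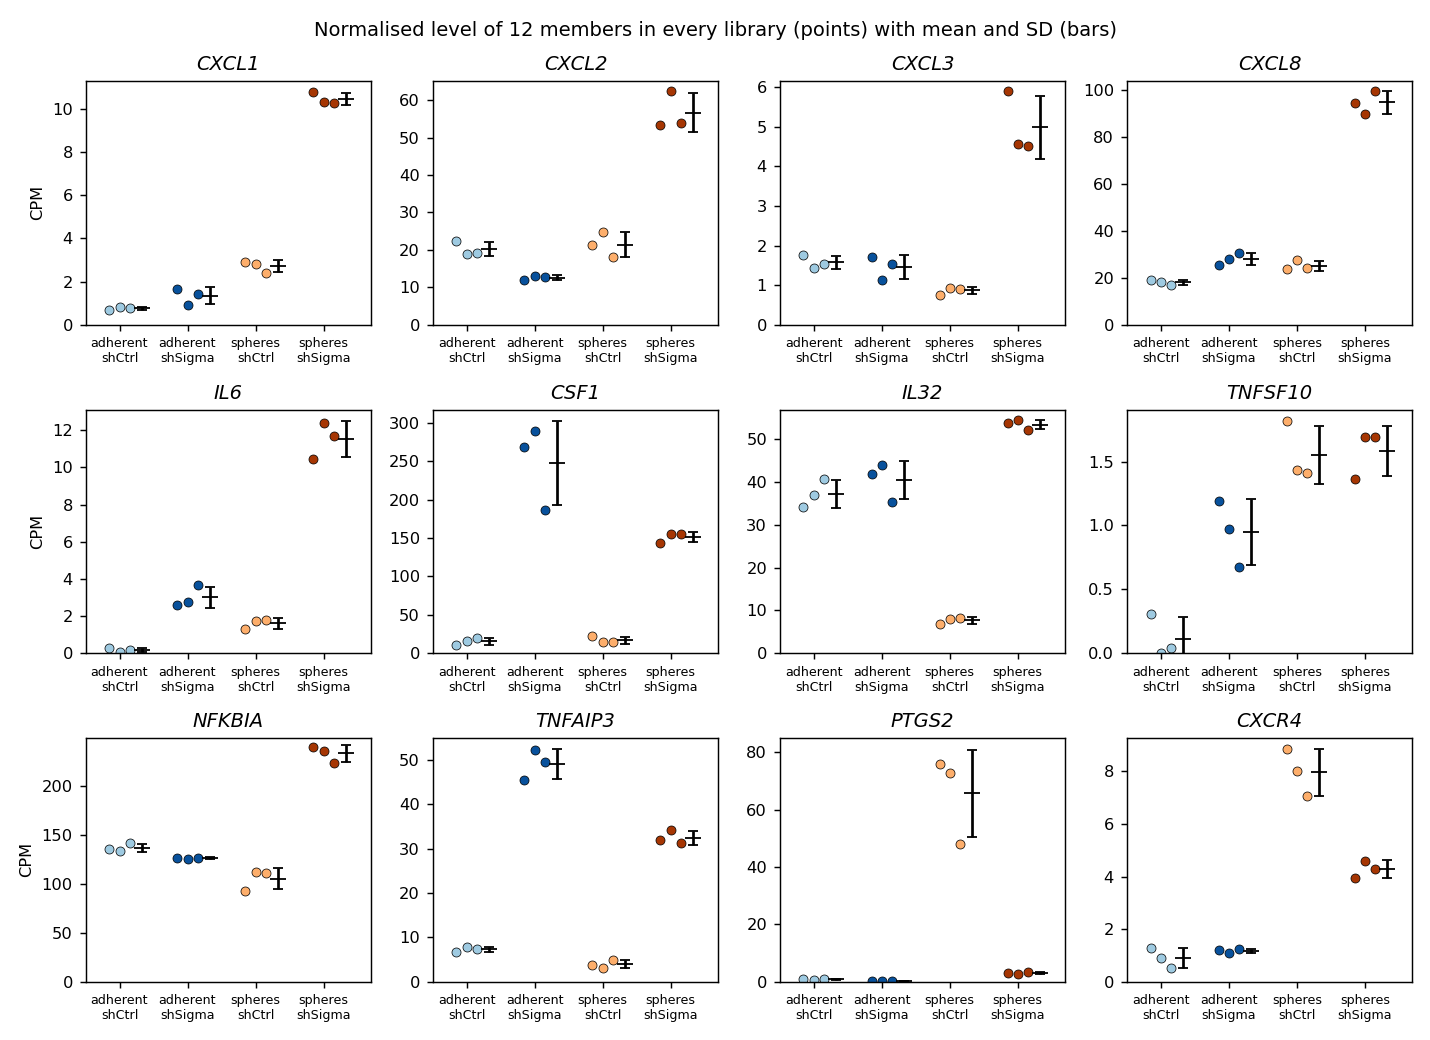
CPM (y axis, linear from 0) of 12 members in each library (points) of the 4 groups (x axis), with the mean and SD of 3 libraries as bars. CXCL1, CXCL2, CXCL3, CXCL8, IL6 and NFKBIA are highest in tumor sphere shSigma libraries, whereas PTGS2 and CXCR4 are highest in tumor sphere shCtrl libraries and CSF1 and TNFAIP3 in adherent shSigma libraries.

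CXCL16, a membrane-bound chemokine and the ligand of CXCR6, was higher in tumor spheres with either hairpin, 1.95-fold in shCtrl and 2.17-fold in shSigma cells. Its mean was 21.3 CPM in adherent shCtrl, 18.5 in adherent shSigma, 41.4 in tumor sphere shCtrl and 39.6 in tumor sphere shSigma cells. The adherent log2 fold change of -0.26 (edgeR adjusted p = 0.0282) was lost in 11 of 14 alternatives, among them each of the 6 in which 1 library was left out (adjusted p 0.0514 to 0.245). CCL20, which recruits cells through CCR6, fell in adherent cells from 5.41, 4.19 and 3.71 CPM to 1.24, 1.02 and 1.11 CPM. In tumor spheres it had 2.58, 3.04 and 3.73 CPM in shCtrl and 3.33, 4.56 and 4.03 CPM in shSigma libraries, which overlapped. The log2 fold changes were -2.04 (SE 0.22, edgeR adjusted p = 0.000227) and 0.33 (SE 0.18, edgeR adjusted p = 0.132), and the interaction was 2.32 (SE 0.29, edgeR adjusted p = 4.92e-05).

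CCL28, a mucosal chemokine that binds CCR10 and CCR3, went the other way from the neutrophil chemokines in tumor spheres. It fell there from 25.2, 24.6 and 24.6 CPM to 12.3, 10.8 and 11.7 CPM, without overlap (log2 fold change -1.10, SE 0.08, edgeR adjusted p = 5.37e-07). In adherent cells it had 15.97, 18.5 and 18.3 CPM in shCtrl and 13.9, 11.98 and 15.1 CPM in shSigma libraries (log2 fold change -0.43, edgeR adjusted p = 0.013). The adherent call was lost without shCtrl replicate 2 (adjusted p = 0.133) and without shSigma replicate 1 (0.0988) or 2 (0.136).

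Among the cytokines, IL6 and CSF1 were the members with the highest log2 fold changes after knockdown in adherent cells. IL6 (ENSG00000136244, chr7:22725884-22732002), the ligand of the IL6R and gp130 receptor complex, had 8, 2 and 4 counts in the adherent shCtrl libraries (0.307, 0.0846 and 0.158 CPM). It had 2.62, 2.76 and 3.67 CPM in adherent shSigma, 1.29, 1.71 and 1.81 CPM in tumor sphere shCtrl and 10.5, 12.4 and 11.7 CPM in tumor sphere shSigma libraries. Every pair of groups compared was separated, with tumor sphere shSigma highest. Knockdown raised IL6 15.1-fold in adherent cells (log2 fold change 3.91, SE 0.35, edgeR adjusted p = 0.000107) and 7.09-fold in tumor spheres (2.83, SE 0.15, edgeR adjusted p = 3.07e-08). The adherent log2 fold change was 4.56 without shCtrl replicate 1. The interaction of -1.14 (SE 0.40, edgeR adjusted p = 0.0485) was lost in 14 of 18 alternatives, 10 of them with 1 library left out (adjusted p 0.0522 to 0.184 there), the exceptions among libraries being replicate 1 of both shCtrl groups. IL6 overlaps STEAP1B and IL6-AS1 on the opposite strand, and whether strand was used in counting is not given in the sources used here, which also touches CXCL5, CXCL16, IL18, LIF, IL24, IL32, TNFSF10, TNFAIP3, BIRC3, ICAM1, PTGS2, IL6R and IL6ST.

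CSF1 (ENSG00000184371, chr1:109910242-109930992) encodes the macrophage colony-stimulating factor. It had 11.3, 15.8 and 20.2 CPM in adherent shCtrl and 269, 289.8 and 186 CPM in adherent shSigma libraries. It had 22.0, 14.5 and 14.2 CPM in tumor sphere shCtrl and 144, 155 and 156 CPM in tumor sphere shSigma libraries. The shSigma libraries of both cultures lay far above all shCtrl libraries. The rise was 15.2-fold in adherent cells (log2 fold change 3.93, SE 0.29, edgeR adjusted p = 0.000133) and 9.01-fold in tumor spheres (3.17, SE 0.14, edgeR adjusted p = 9.05e-08), with an interaction that did not pass the test (-0.81, SE 0.34, edgeR adjusted p = 0.114) but did with DESeq2 (adjusted p = 0.0284), with the GC shift of each library as a covariate (0.000815) and without adherent shSigma replicate 3 (0.0476). The 40 tested genes nearest to CSF1 had a median log2 fold change of -0.54 in adherent cells and -0.53 in tumor spheres, opposite to CSF1 itself. Per length of the union of annotated exons, CSF1 was the second highest member in adherent shSigma cells at 47.4 ± 10.4 RPKM (SD, n = 3). It came after ICAM1 at 52.5 ± 1.96 RPKM, and these overlap within their spread. Ranks by the length of 1 transcript were not computed and could differ.

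IL24 (ENSG00000162892), an interleukin-10 family cytokine, rose after knockdown in both cultures. It went from 2.96, 2.03 and 2.17 CPM to 27.2, 31.1 and 32.2 CPM in adherent cells and from 1.05, 0.828 and 1.01 CPM to 17.03, 14.3 and 15.99 CPM in tumor spheres. The shSigma libraries were separated from shCtrl libraries in both. The log2 fold changes were 3.59 (SE 0.17, edgeR adjusted p = 8.16e-06) and 4.02 (SE 0.15, edgeR adjusted p = 1.64e-09), and the interaction of 0.37 (SE 0.23, edgeR adjusted p = 0.253) did not pass the test. IL32 (ENSG00000008517), a proinflammatory cytokine without a close family, differed in that respect. Adherent shCtrl libraries had 34.1, 36.9 and 40.6 CPM and adherent shSigma libraries 41.8, 43.97 and 35.4 CPM, which overlapped. In tumor spheres IL32 stood at 6.73, 8.002 and 8.21 CPM in shCtrl and at 53.6, 54.3 and 52.1 CPM in shSigma libraries, a 6.94-fold rise (log2 fold change 2.79, SE 0.09, edgeR adjusted p = 3.79e-10). Its interaction of 2.68 (SE 0.14, edgeR adjusted p = 2.8e-08) was the highest among the members.

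The other cytokines of the gp130 group fell or did not pass the test. LIF, leukemia inhibitory factor, had 116, 140.0 and 167 CPM in adherent shCtrl and 53.3, 57.2 and 47.5 CPM in adherent shSigma libraries, and it had 189, 168 and 184 CPM in tumor sphere shCtrl and 116, 122 and 117 CPM in tumor sphere shSigma libraries. Both pairs were separated, with log2 fold changes of -1.48 (SE 0.14, edgeR adjusted p = 0.000205) and -0.61 (SE 0.06, edgeR adjusted p = 3.24e-06). IL11 did not pass the test in adherent cells, at 19.5 ± 0.686 CPM in shCtrl and 19.4 ± 0.829 CPM in shSigma cells (SD, n = 3), and fell in tumor spheres from 11.3 ± 1.21 to 6.28 ± 0.529 CPM (log2 fold change -0.85, edgeR adjusted p = 7.7e-05). IL18, which is stored as an inactive precursor until caspase cleavage, fell from 120.2 ± 14.2 to 87.7 ± 5.498 CPM in adherent cells and rose from 29.9 ± 3.23 to 49.1 ± 0.930 CPM in tumor spheres. Its log2 fold changes of -0.52 and 0.71 differed by 1.17 (SE 0.13, edgeR adjusted p = 2.35e-05). TNFSF10, the death ligand TRAIL, had 8, 0 and 1 counts in adherent shCtrl and 25, 19 and 14 counts in adherent shSigma libraries. That rise of 2.87 (SE 0.74, edgeR adjusted p = 0.0155) missed the threshold without shCtrl replicate 3 (adjusted p = 0.0527) and was 5.19 without shCtrl replicate 1, which held 8 of the 9 counts. In tumor spheres TNFSF10 had 1.55 ± 0.227 CPM in shCtrl and 1.58 ± 0.193 CPM in shSigma cells.

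**Figure D3:**
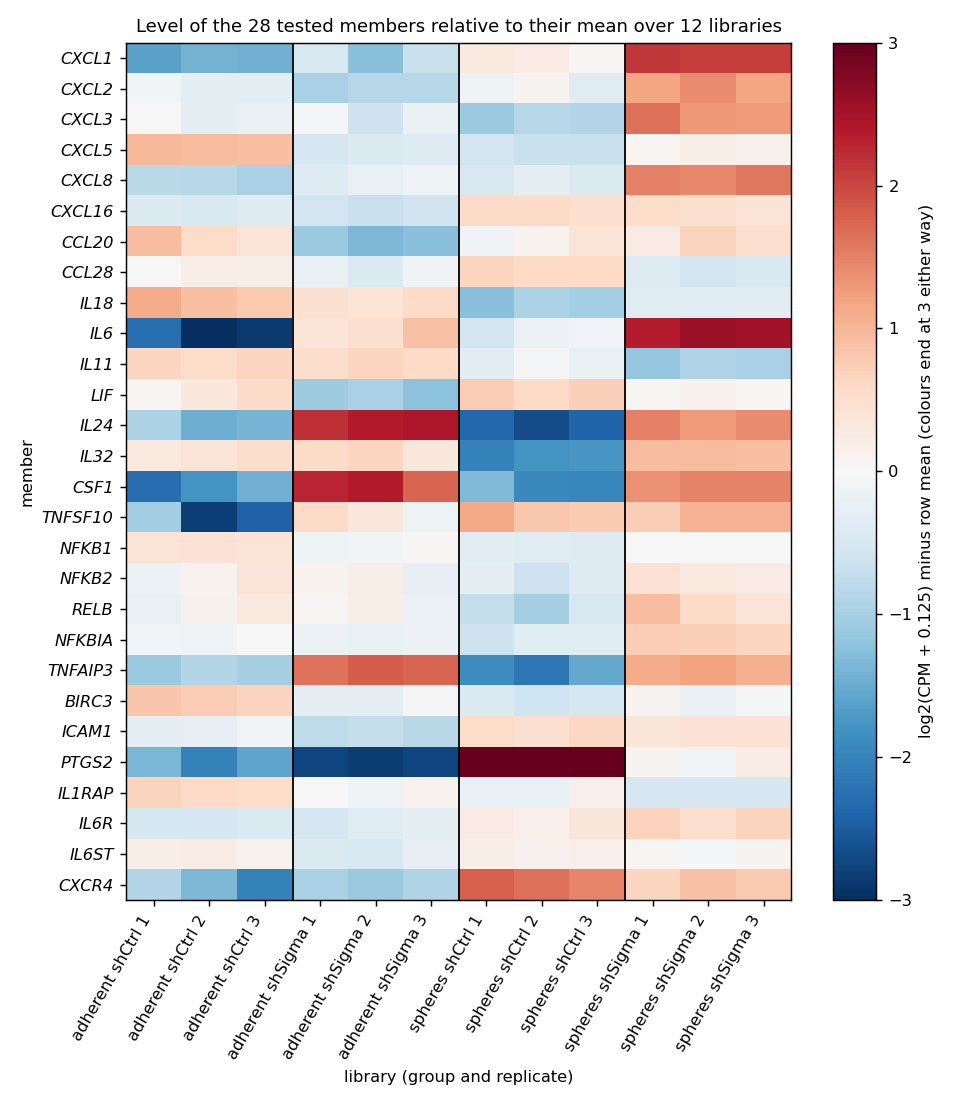
Level of each of the 28 tested members (rows, by role) in each of the 12 libraries (columns, 3 per group), as log2(CPM + 0.125) minus the mean of the row, red for higher and blue for lower, with colours ending at 3 either way. The 3 libraries of a group resemble each other for most members, and the blocks of IL24, CSF1 and TNFAIP3 follow the hairpin while those of CXCR4 and ICAM1 follow the culture.

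The NF-kappaB subunits and feedback inhibitors all rose in tumor spheres after knockdown, 5 of 5, where 30.2% of all genes rose. In adherent cells 1 rose, 2 fell and 2 did not pass the test, where 22.3% of all genes rose and 27.7% fell. NFKBIA (ENSG00000100906, chr14:35401079-35404749) had 92.7, 112 and 111 CPM in tumor sphere shCtrl and 240.0, 235 and 224 CPM in tumor sphere shSigma libraries. Adherent libraries lay between these groups, at 135, 134 and 141 CPM in shCtrl and 127, 125 and 127 CPM in shSigma cells. The log2 fold change was 1.14 in tumor spheres (SE 0.07, edgeR adjusted p = 9.76e-08) and the interaction 1.26 (SE 0.10, edgeR adjusted p = 8.76e-07). In adherent cells it was -0.18 (SE 0.06, edgeR adjusted p = 0.0321), a call lost in 11 of 14 alternatives, 5 of them with 1 library left out (adjusted p 0.105 to 0.338; it was kept only without shCtrl replicate 3).

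TNFAIP3 (ENSG00000118503, chr6:137867214-137883314) encodes A20, a ubiquitin-editing enzyme that shuts off signalling to NF-kappaB. It went from 6.80, 7.91 and 7.37 CPM to 45.6, 52.3 and 49.5 CPM in adherent cells, and from 3.86, 3.20 and 4.99 CPM to 31.9, 34.2 and 31.2 CPM in tumor spheres. Unlike NFKBIA, it was higher in shSigma libraries by a wide gap in both cultures. The log2 fold changes were 2.68 (SE 0.10, edgeR adjusted p = 4.09e-06) and 3.00 (SE 0.13, edgeR adjusted p = 4.73e-09), and the interaction of 0.27 (edgeR adjusted p = 0.287) did not pass the test except without tumor sphere shCtrl replicate 3 (adjusted p = 0.041).

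NFKB1, which encodes the p105 precursor, had 86.7 ± 1.30 CPM in adherent shCtrl, 62.5 ± 3.98 in adherent shSigma, 50.4 ± 1.26 in tumor sphere shCtrl and 64.9 ± 0.850 in tumor sphere shSigma cells (SD, n = 3). Its knockdown log2 fold changes were -0.54 (edgeR adjusted p = 0.000324) and 0.36 (edgeR adjusted p = 0.000201). NFKB2, the p100 precursor gene, and RELB, its partner in the noncanonical pathway, overlapped between hairpins in adherent cells. In tumor spheres NFKB2 rose from 73.5 ± 8.65 to 125 ± 9.03 CPM (log2 fold change 0.76, edgeR adjusted p = 2.78e-05). RELB rose there from 11.4, 9.38 and 13.5 CPM to 35.9, 27.9 and 24.7 CPM (log2 fold change 1.36, SE 0.17, edgeR adjusted p = 8.26e-05).

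Of the other targets, BIRC3 and PTGS2 showed opposite patterns in tumor spheres. BIRC3 (ENSG00000023445), which encodes the inhibitor of apoptosis cIAP2, had 128, 122 and 113 CPM in adherent shCtrl and 59.3, 59.5 and 69.9 CPM in adherent shSigma libraries, and it had 54.0, 47.6 and 49.8 CPM in tumor sphere shCtrl and 75.6, 62.8 and 68.5 CPM in tumor sphere shSigma libraries. It fell in adherent cells (log2 fold change -1.01, SE 0.08, edgeR adjusted p = 7.93e-05) and rose in tumor spheres (0.45, SE 0.08, edgeR adjusted p = 0.000406). PTGS2 (ENSG00000073756, chr1:186671791-186680922), the inducible cyclooxygenase of prostaglandin synthesis, had 76.0, 72.9 and 48.1 CPM in tumor sphere shCtrl libraries and 3.17, 2.81 and 3.50 CPM in tumor sphere shSigma libraries. Adherent libraries had 1.08, 0.634 and 0.907 CPM with shCtrl and 0.333, 0.307 and 0.338 CPM with shSigma. The tumor sphere shCtrl group thus stood above all other libraries, and shSigma was lower in both cultures without overlap. PTGS2 fell 20.7-fold in tumor spheres (log2 fold change -4.38, SE 0.20, edgeR adjusted p = 1.24e-07) and 2.78-fold in adherent cells (-1.47, SE 0.32, edgeR adjusted p = 0.00632), where DESeq2 gave an adjusted p of 0.087.

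ICAM1, the endothelial and epithelial ligand of leukocyte integrins, was the highest member per length in all 4 groups, at 77.7 ± 5.81 RPKM in adherent shCtrl, 52.5 ± 1.96 in adherent shSigma, 130.5 ± 5.93 in tumor sphere shCtrl and 118.6 ± 3.06 in tumor sphere shSigma cells (SD, n = 3). It fell in adherent cells from 254, 259 and 291 CPM to 182, 187 and 174 CPM (log2 fold change -0.63, SE 0.08, edgeR adjusted p = 0.0004). The drop of 0.14 in tumor spheres (edgeR adjusted p = 0.0426) was lost in 8 of 14 alternatives, 5 of them with 1 library left out (adjusted p 0.0803 to 0.18; kept only without shCtrl replicate 2).

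Of the cytokine receptors 0 rose and 2 fell in adherent cells, against 22.3% and 27.7% of all genes. In tumor spheres 1 rose and 2 fell, against 30.2% and 30.9%. IL6ST, which encodes gp130, had 477, 483 and 448 CPM in adherent shCtrl and 308, 303 and 351 CPM in adherent shSigma libraries (log2 fold change -0.61, SE 0.07, edgeR adjusted p = 0.000351). In tumor spheres its change of -0.13 (edgeR adjusted p = 0.0424) was lost in 10 of 14 alternatives, 5 of them with 1 library left out (adjusted p 0.0586 to 0.172; kept only without shCtrl replicate 2). IL1RAP, the accessory chain of the interleukin-1 receptor, fell from 92.6 ± 4.04 to 60.8 ± 4.20 CPM in adherent cells and from 56.9 ± 8.94 to 43.0 ± 0.0632 CPM in tumor spheres. IL6R did not pass the test in adherent cells (27.9 ± 0.849 and 29.9 ± 2.23 CPM) and rose in tumor spheres from 46.9 ± 3.62 to 60.6 ± 4.18 CPM (log2 fold change 0.37, edgeR adjusted p = 0.00143). CXCR4, the receptor of the stromal chemokine CXCL12, had 8.84, 8.002 and 7.05 CPM in tumor sphere shCtrl and 3.93, 4.61 and 4.29 CPM in tumor sphere shSigma libraries, a drop of 0.90 on the log2 scale (SE 0.13, edgeR adjusted p = 0.000118). Its adherent groups overlapped, at 1.27, 0.888 and 0.513 CPM with shCtrl and 1.19, 1.08 and 1.25 CPM with shSigma.

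The second question was how the members differed between tumor spheres and adherent cells. In shCtrl cells 10 members were higher in tumor spheres and 13 lower, where 27.4% of 13800 genes were higher and 26.3% lower (53.7% in either direction). In shSigma cells 18 were higher and 6 lower, against 21.9% and 25.2% of 13622 genes (47.1% in either direction). Called differences over 1 on the log2 scale numbered 5 higher and 5 lower in shCtrl cells, against 10.8% and 4.96% of genes (15.8% in either direction), and 12 higher and 1 lower in shSigma cells, against 5.76% and 3.56% (9.32% in either direction). The median log2 fold change of the members was -0.20 in shCtrl and 0.70 in shSigma cells, and that of all genes was 0.04 and 0.00. Groups did not overlap for 24 members in shCtrl and 25 in shSigma cells, against 62.7% and 60.8% of all genes. These comparisons use the same 12 libraries as the comparisons of the hairpins, so each is given with its own values only.

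PTGS2 had the largest culture difference among the members, at 74.2-fold in shCtrl cells (log2 fold change 6.21, SE 0.27, edgeR adjusted p = 3.79e-06) and 9.67-fold in shSigma cells (3.27, SE 0.22, edgeR adjusted p = 2.52e-05). The shSigma value rests on low counts, as few as 6 in an adherent library, and was not tested under the filter of at least 10 counts in every library. CXCR4 was 8.87-fold higher in tumor spheres of shCtrl cells (log2 fold change 3.15, SE 0.26, edgeR adjusted p = 4.31e-05) and 3.68-fold higher in those of shSigma cells (1.88, SE 0.16, edgeR adjusted p = 7.81e-05). TNFSF10 rose by 3.63 in shCtrl cells (SE 0.61, edgeR adjusted p = 0.00184), a value that was 5.84 without adherent shCtrl replicate 1. Its rise of 0.76 in shSigma cells (edgeR adjusted p = 0.0452) was lost in 9 of 14 alternatives, 5 of them with 1 library left out, namely shSigma replicate 2 (adjusted p = 0.0754) or 3 (0.0937) of adherent cells or any of tumor spheres (0.0645 to 0.123). IL6 was higher in tumor spheres by 3.07 with shCtrl (SE 0.38, edgeR adjusted p = 0.000307) and by 1.96 with shSigma (SE 0.14, edgeR adjusted p = 3.92e-05). ICAM1 and IL6R were also higher in tumor spheres with both hairpins, by 0.75 each in shCtrl cells and by 1.20 and 1.04 in shSigma cells, as was CXCL16 by 0.96 and 1.12. CXCL1 and CXCL8 complete the 9 members that were higher in tumor spheres with both hairpins.

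A set of 5 members was lower in tumor spheres with both hairpins, IL18, IL11, IL24, TNFAIP3 and IL1RAP. IL18 differed most in shCtrl cells, with a log2 fold change of -2.01 (SE 0.11, edgeR adjusted p = 5.8e-06), and IL11 most in shSigma cells, with -1.61 (SE 0.10, edgeR adjusted p = 1.95e-05). Another 5 members, CXCL3, CXCL5, IL32, RELB and NFKBIA, were lower in tumor spheres of shCtrl cells and higher in those of shSigma cells. The shares of all genes in such joint classes were not computed here either. IL32 had log2 fold changes of -2.28 (SE 0.12, edgeR adjusted p = 3.46e-06) and 0.42 (SE 0.10, edgeR adjusted p = 0.00993). NFKBIA had -0.38 (SE 0.08, edgeR adjusted p = 0.00556) and 0.91 (SE 0.05, edgeR adjusted p = 9.71e-06). All 5 subunits and feedback inhibitors were lower in tumor spheres of shCtrl cells, by between 0.38 and 0.87 on the log2 scale, where 26.3% of all genes were lower. In shSigma cells RELB and NFKBIA were higher, TNFAIP3 was lower, and NFKB1 and NFKB2 did not pass the test.

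Some culture calls depended on single libraries or on the test. In shCtrl cells NFKB2 (-0.55, edgeR adjusted p = 0.0209) was lost without replicate 2 of adherent cells (adjusted p = 0.0554) or of tumor spheres (0.0664), CXCL3 (-0.86, edgeR adjusted p = 0.00888) was lost with DESeq2 (adjusted p = 0.0779), and LIF (0.35, edgeR adjusted p = 0.0513) passed without adherent replicate 3 (adjusted p = 0.00303) and in 5 further alternatives, among them DESeq2 (0.0239) and upper-quartile normalization (0.0247). CCL20 (-0.51, edgeR adjusted p = 0.0666) passed in shCtrl cells without replicate 3 of adherent cells (adjusted p = 0.0177) or of tumor spheres (0.0433). In shSigma cells CSF1 (-0.69, edgeR adjusted p = 0.0289) was lost without any library but adherent replicate 3 (adjusted p 0.0626 to 0.0861), and RELB (0.64, edgeR adjusted p = 0.0192) was lost without adherent replicate 1 (0.0575) or tumor sphere replicate 2 (0.053). BIRC3 (0.16, edgeR adjusted p = 0.145) passed without adherent shSigma replicate 3 (adjusted p = 0.0139), as did NFKB2 (0.33, edgeR adjusted p = 0.0821) without adherent shSigma replicate 2 (0.0474) or 3 (0.00901).

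**Figure D4:**
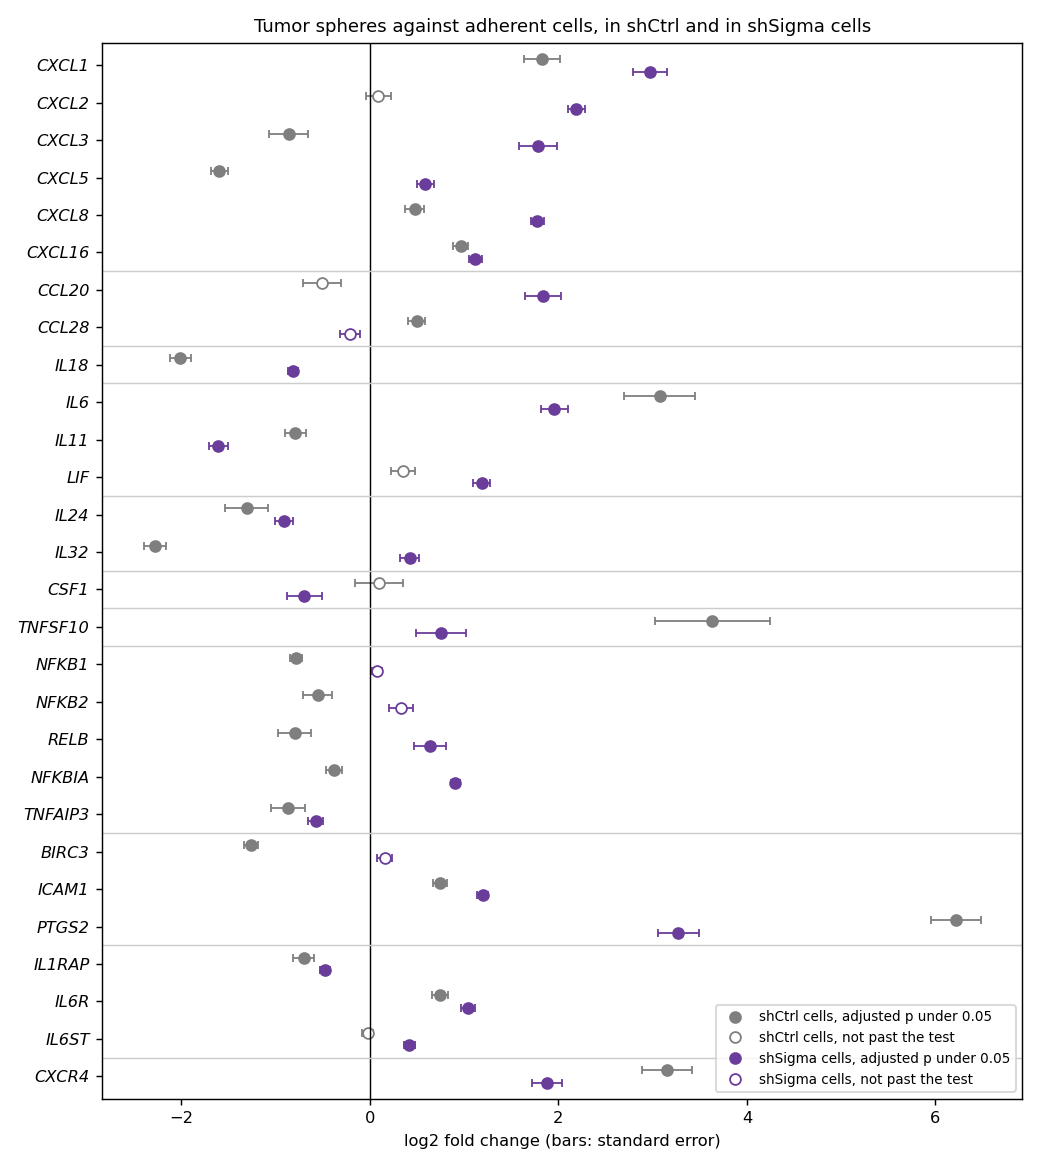
Log2 fold change of tumor spheres against adherent cells (x axis, with standard error) for the 28 tested members (y axis, grouped by role), in shCtrl (grey) and shSigma cells (purple), with filled points for an adjusted p under 0.05. In shSigma cells 18 filled points lie right of 0 and 6 left of it, in shCtrl cells 10 and 13, with PTGS2 farthest to the right at 6.21 and 3.27.

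Genes around the members were taken from lists by role. The NF-kappaB signalling machinery (kinases, adaptors and other regulators) had 25 tested genes. After knockdown 7 rose and 2 fell in adherent cells, against 22.3% and 27.7% of all genes. In tumor spheres 12 rose and 4 fell, against 30.2% and 30.9%. The share of this list called in adherent cells, 9 of 25, was under the 50.0% of all genes, and that between cultures, 8 of 25 with either hairpin, was under 53.7% and 47.1%. The largest called changes were those of BCL3, an atypical inhibitor family protein (log2 fold change 0.72, SE 0.22), and the kinase gene TBK1 (-0.39, SE 0.08) in adherent cells. In tumor spheres they were those of TNIP1, a partner of A20 (1.05, SE 0.06, edgeR adjusted p = 2.91e-08), and CHUK, the kinase subunit IKKα (-0.32, SE 0.06). Between cultures 4 of the 25 were higher and 4 lower with either hairpin, among them NFKBIZ, which was higher in tumor spheres by 2.43 in shCtrl and 1.79 in shSigma cells.

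The list of further NF-kappaB target genes had 14 tested genes. In adherent cells 8 rose and 3 fell, against 22.3% and 27.7% of all genes. In tumor spheres 10 rose and 2 fell, against 30.2% and 30.9%. C3, the complement component, rose by 3.10 (SE 0.22, edgeR adjusted p = 4.08e-05) and by 5.14 (SE 0.16, edgeR adjusted p = 3.21e-10). BCL2A1, a survival gene of the BCL2 family, fell by 1.84 in adherent cells (SE 0.33, edgeR adjusted p = 0.00279). It was called lower in tumor spheres too, where it had 29, 40 and 41 counts in shCtrl and 2, 2 and 0 counts in shSigma libraries, too few for a fold change to be read. Between cultures this list had 2 higher and 6 lower genes of 14 in shCtrl cells, against 27.4% and 26.3% of all genes. There LCN2 was higher by 3.25 and PLAU lower by 1.69 on the log2 scale. In shSigma cells 4 of 13 were higher and 4 lower, against 21.9% and 25.2%.

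Receptors of the member ligands numbered 31, of which only 15 were tested in adherent cells and 16 in tumor spheres. After knockdown 5 rose and 3 fell in adherent cells, against 22.3% and 27.7% of all genes. In tumor spheres 4 rose and 4 fell, where all genes gave 30.2% and 30.9%, so that these receptors did not exceed the background there. TNFRSF10A, a death receptor for TRAIL, fell by 0.60 in adherent cells (SE 0.07), where the decoy receptor gene TNFRSF10C rose by 1.25 (SE 0.23). In tumor spheres IL18R1, a chain of the interleukin-18 receptor, rose by 1.56 (SE 0.19, edgeR adjusted p = 2e-05), and TNFRSF11B, the secreted decoy osteoprotegerin, was called lower, with 21, 19 and 17 counts in shCtrl and 1, 1 and 2 counts in shSigma libraries. In shSigma cells 5 of 14 receptors were higher in tumor spheres and 5 lower, against 21.9% and 25.2% of all genes. In shCtrl cells they were 3 and 3 of 16, against 27.4% and 26.3%.

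**Figure D5:**
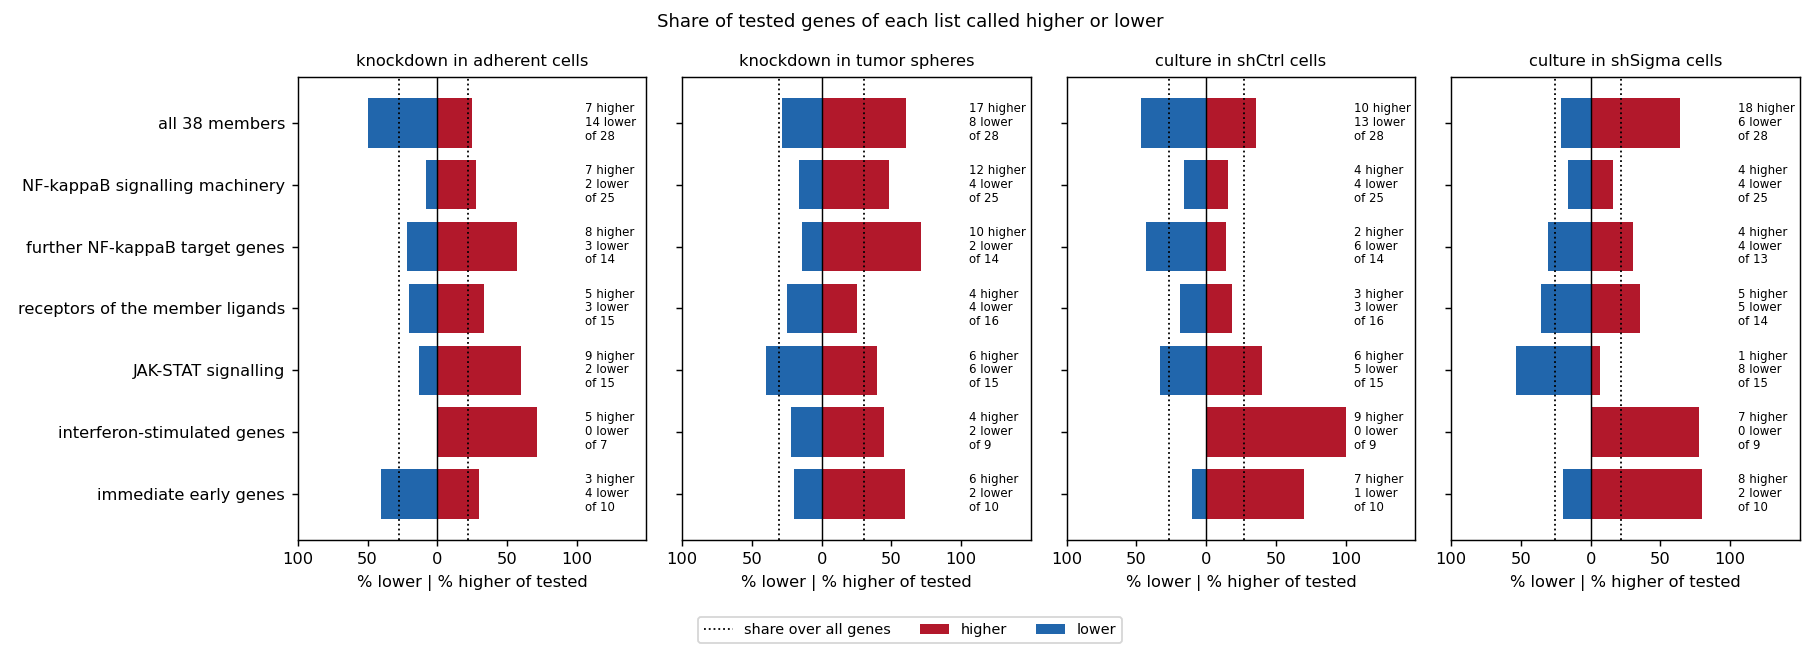
Share of the tested genes of each list (y axis) that were called higher (red, right) or lower (blue, left) in 4 comparisons, in percent, with dotted lines at the shares over all genes tested and the counts beside each bar. The 38 members reach 17 higher of 28 in the knockdown in tumor spheres and 18 of 28 in the culture comparison of shSigma cells.

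JAK-STAT signalling genes, which carry the response to gp130 ligands, had 9 higher and 2 lower of 15 tested genes after knockdown in adherent cells and 6 and 6 in tumor spheres. Their called changes stayed under 1 on the log2 scale, with CISH, a feedback inhibitor, at 0.81 (SE 0.23) and JAK1 at -0.90 (SE 0.07) in adherent cells and STAT6 at 0.45 (SE 0.05) and STAT5A at -0.54 (SE 0.13) in tumor spheres. In shSigma cells 8 of the 15 were lower in tumor spheres and 1, CISH, was higher. Interferon-stimulated genes had 5 higher and 0 lower of 7 tested in adherent cells and 4 higher and 2 lower of 9 in tumor spheres after knockdown, with IFIT3 at 3.17 (SE 0.17), IFIT2 at 1.95 (SE 0.09) and OAS1 at -2.58 (SE 0.16, edgeR adjusted p = 1.03e-07). All 9 tested genes of that list were higher in tumor spheres of shCtrl cells and 7 of 9 in those of shSigma cells. Immediate early genes respond to serum and growth factors within minutes. They were higher in tumor spheres for 7 of 10 in shCtrl and 8 of 10 in shSigma cells. FOSB stood at 4.05 (SE 0.41) and 4.21 (SE 0.41), and FOSL1 was lower by 2.06 (SE 0.16) and 0.75 (SE 0.14) on the log2 scale. Over all genes tested, 22.3% were higher and 27.7% lower after knockdown in adherent cells, and 30.2% and 30.9% in tumor spheres. Between cultures the shares were 27.4% and 26.3% in shCtrl and 21.9% and 25.2% in shSigma cells.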

How the data were processed

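RNA of the 12 libraries was sequenced as single 75-nt reads from directional libraries made with 800 ng of total RNA. Per the labels and the study's methods, the authors aligned reads to GRCh38.p12 with STAR 2.6.1c (version from the submitters' processing notes) and deposited raw counts per Ensembl gene, without normalization. Which annotation was used, whether counting used strand and how multiply aligned reads were handled are not given in the sources used here. Symbols were attached from GENCODE 44 for 26153 of 28747 identifiers, and gene coordinates are from the same GRCh38 annotation.

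Each comparison was fitted on its own 6 libraries, and the interaction on all 12, with edgeR 4.0.16 (R 4.3.3): TMM normalization, removal of low genes with a count minimum of 10, the robust quasi-likelihood test, 2-sided, with p-values adjusted by the Benjamini-Hochberg method across the tested genes of the comparison. CPM used TMM factors over the 12 libraries, and log2 fold changes a prior count of 0.125. RPKM divided CPM by the length in kb of the union of all annotated exons of the gene. Standard errors (SE) were back-calculated as the absolute log2 fold change divided by the square root of the quasi-likelihood F statistic. The level of the gene that the hairpin targets is not reported here. Members and gene lists were chosen with earlier results of these data known. Genes of the pathway lists were named where they had the largest called change of their list in either direction and the group with the higher level averaged 1 CPM or more. The scripts were tested on simulated data. The study states no pairing of the libraries by replicate number. Deviations of same-numbered libraries from their group means correlated between -0.817 and 0.379, which cannot settle whether they were paired. Replicates differed by more than counting error (chi-square per gene 2.65 to 42.4). Alternatives covered the test (DESeq2 1.42.0), the normalization, the filter, a joint fit, a replicate block, each library left out and, added after seeing the data, each library's GC shift as a covariate.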

Additional observations from a re-analysis of the deposited data

Results flagged for a closer look

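The knockdown response differed between the cultures for 22 members by the interaction test of edgeR, out of 28 tested, against 28.4% of all genes. The values given are the log2 fold change in tumor spheres minus that in adherent cells. Among the chemokines the difference was 1.12 for CXCL1, 2.08 for CXCL2, 2.62 for CXCL3, 2.16 for CXCL5, 1.28 for CXCL8, 2.32 for CCL20 and -0.73 for CCL28. Among the cytokines it was 1.17 for IL18, -1.14 for IL6, -0.84 for IL11, 0.81 for LIF, 2.68 for IL32 and -2.89 for TNFSF10. The value of TNFSF10 was -5.08 without adherent shCtrl replicate 1, and the call of IL6 was lost in 14 of 18 alternatives. Among the subunits and inhibitors it was 0.84 for NFKB1, 0.86 for NFKB2, 1.42 for RELB and 1.26 for NFKBIA. Among the other targets and receptors it was 1.39 for BIRC3, 0.43 for ICAM1, -2.96 for PTGS2, 0.42 for IL6ST and -1.29 for CXCR4. Groups of 3 libraries are too small for a test of single outlying libraries.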

How the results depend on the processing

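Of 115 called member results, 101 were called under every alternative in which they were tested, 14 were lost in at least 1, and all 115 kept their sign. Some results of IL6, PTGS2 and TNFSF10 could not be tested under the filter of at least 10 counts in every library. The interaction had 3 members called lower with at least 10 counts in every library, where 25 members were tested, instead of 6. Leaving out 1 library gave 5 to 7 members higher and 11 to 13 lower after knockdown in adherent cells, 17 and 6 to 8 in tumor spheres, 10 to 11 and 12 to 14 between cultures in shCtrl cells, 16 to 19 and 5 to 6 in shSigma cells, and 16 to 18 and 5 to 6 in the interaction. The replicate block gave 6 higher and 11 lower after knockdown in adherent cells, 17 and 6 in tumor spheres, 10 and 13 between cultures in shCtrl cells, 18 and 6 in shSigma cells, and 16 and 5 in the interaction. The GC covariate gave 7 and 15, 17 and 8, 11 and 14, 20 and 7, and 17 and 7 in the same order. Only uncalled log2 fold changes turned sign, and the cause was not tested: IL6ST between cultures in shCtrl cells (0.01602 with upper-quartile normalization) and, over the libraries left out, CXCL3 (-0.2399 to 0.04174), IL11 (-0.07874 to 0.02405) and RELB (-0.1835 to 0.009548) after knockdown in adherent cells, TNFSF10 (-0.03105 to 0.1529) after knockdown in tumor spheres, and CXCL2 (-0.03419 to 0.1572) and CSF1 (-0.1641 to 0.2633) between cultures in shCtrl cells. Counts at or under the floor of 3 per library leave CSF3, IL1A, IL1B and CXCL11 unreadable at this depth, and p-values cover the spread between these 3 libraries a group only.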
